A study of Mus musculus with 43 samples.

Results

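The 34 genes described here encode the enzymes and transporters of glycolysis and the factors, sensors and target genes of the response to low oxygen. They were taken by symbol from the complete gene tables, which list 56941 gene identifiers, and all 34 were found and passed the low-count filter in each comparison. RNA was sequenced from sorted bone marrow cells of mice. Wild-type CD45.1 recipients had been given 5e6 whole marrow cells carrying JAK2V617F, a kinase mutation that drives myeloproliferative disease, with no conditioning treatment beforehand. The transplanted cells carried CD45.2, the other variant of a surface protein of blood cells, so that donor and host cells of one mouse could be sorted apart. Controls were wild-type CD45.1 mice, matched for age and sex, that received no transplant.

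Marrow, stroma and CD11b-positive cells were sorted. From marrow about 7 months after transplantation there were 7 libraries of host cells (CD45.1), 7 libraries of donor cells (CD45.2) from the same 7 mice (3 female, 4 male), and 8 libraries of CD45.1 cells from controls (4 female, 4 male). Stroma, meaning cells without either CD45 variant and without lineage markers, came from the same 7 transplanted and 8 control mice. Cells positive for CD45.1 and the myeloid marker CD11b came from other, male mice 52 weeks after transplantation, 3 transplanted and 3 control. The final share of donor cells in blood ran from 0.63 to 5.99 among the 7 mice, in a unit the labels do not give. Neither the age in weeks nor the way the JAK2V617F allele was made is given in the sources used here. Donor cells differ from host and control cells both in the mutation and in coming from another mouse, and these cannot be told apart. The donor library of mouse N204 is titled donor but carries a characteristic naming recipient-derived cells, and the title was followed.

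Library totals ran from 15.7 to 19.7 M counts (M, 1000000) in CD45-sorted marrow, from 41.2 to 143.2 M in stroma and from 32.5 to 44.9 M in CD11b cells. Levels are given as CPM, counts per 1000000 scaled by TMM within each kind of sort, or as deposited TPM where genes or sorts are set side by side, since TPM is per length. A gene passed where the adjusted p of edgeR's quasi-likelihood test was below 0.05 over all genes tested. Control library N051 was the highest or lowest by a wide gap for 11.08% of genes in its group, transplanted stroma library N032 for 10.36% and host library N269 for 5.518%. Transplanted CD11b library N129 also stood apart, with its values given beside that comparison. In bulk RNA, fewer cells of a type and less RNA per cell cannot be told apart. Marker genes of the sorted cells were present: the summed level of 10 neutrophil markers was 21629 to 71176 CPM in the CD45 sorts and that of 10 stromal markers 3960 to 27359 CPM in stroma, where neutrophil markers (3284 to 35380 CPM) and 12 erythroid markers (1272 to 20174 CPM) were also found. Several of these genes, Gapdh, Pgk1, Eno1, Tpi1 and Ldha among them, have processed copies elsewhere in the genome between which reads can be divided.

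Glycolysis splits glucose into pyruvate in the cytosol. Hexokinases trap glucose, phosphofructokinase commits it, the later enzymes yield ATP and pyruvate, and lactate dehydrogenase turns pyruvate into lactate. Most of these genes are known targets of the hypoxia-inducible factors, whose alpha subunits Hif1a and Epas1 (HIF-2 alpha) are marked for destruction by the oxygen-sensing prolyl hydroxylases Egln1 and Egln3 when oxygen is present. HIF binds a short core, ACGTG or GCGTG, and blood stem cells in marrow are known for relying on glycolysis.

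The bases before the gene start are shown for 4 members that passed in at least 2 comparisons. Each has a single start in the RefSeq promoter table (build GRCm38.p6) and no exon of the GENCODE annotation of that build in the window. All 4 rose in donor cells against controls, which was not a criterion of the choice. Capitals mark the HIF core ACGTG or GCGTG on either strand. The core ACGTG lies inside the E-box CACGTG on both strands, so that a match may belong to either, and none of these 4 windows held the E-box. Each run is the 250 bases before the start, 5′ to 3′ on the gene's strand. Pgam1 lies on the plus strand at chr19:41911621-41911870, Pgk1 on the plus strand at chrX:106186850-106187099, Gapdh on the minus strand at chr6:125165774-125166023 and Egln3 on the minus strand at chr12:54203875-54204124.
Pgam1: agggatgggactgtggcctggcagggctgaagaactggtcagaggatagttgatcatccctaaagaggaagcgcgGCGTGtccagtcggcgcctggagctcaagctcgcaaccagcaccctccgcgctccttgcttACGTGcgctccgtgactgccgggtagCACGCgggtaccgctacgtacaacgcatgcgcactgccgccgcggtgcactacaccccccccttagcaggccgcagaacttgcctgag
Pgk1: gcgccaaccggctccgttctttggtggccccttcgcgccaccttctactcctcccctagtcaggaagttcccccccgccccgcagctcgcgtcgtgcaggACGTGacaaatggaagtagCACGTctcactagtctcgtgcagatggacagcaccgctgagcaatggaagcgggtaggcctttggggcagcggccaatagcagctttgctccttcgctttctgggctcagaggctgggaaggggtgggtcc
Gapdh: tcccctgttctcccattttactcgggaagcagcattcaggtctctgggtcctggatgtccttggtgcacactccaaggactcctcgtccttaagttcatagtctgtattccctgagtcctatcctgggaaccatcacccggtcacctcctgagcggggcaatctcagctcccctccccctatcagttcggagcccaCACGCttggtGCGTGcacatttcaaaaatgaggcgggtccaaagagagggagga
Egln3: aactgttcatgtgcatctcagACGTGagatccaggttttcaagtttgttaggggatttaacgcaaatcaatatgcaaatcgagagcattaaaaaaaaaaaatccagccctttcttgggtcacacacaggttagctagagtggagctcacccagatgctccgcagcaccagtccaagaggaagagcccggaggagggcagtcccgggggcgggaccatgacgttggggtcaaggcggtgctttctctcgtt
Pgam1 held 3 matches, Pgk1 2, Gapdh 2 and Egln3 1. Of 3 further members with a single start that passed in at least 2 comparisons, not printed because annotated exons cover part of the window, Tpi1 and Gpi1 held 0 matches and Ero1l 3. Of 32851 promoter windows in the table, 38.6% held either core and 6.02% the E-box. The 34 genes matched 46 windows of 32 genes (Epas1 and Slc2a3 had none under their symbols, and Ero1l is listed as Ero1a), of which 38 (82.6%) held a core. The members' windows were also richer in G and C, with a median of 62.2% against 52.4% over all windows. A match is a description of the letters and not a measured site.

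In control CD45.1 marrow the most abundant members were enzymes of glycolysis. Gapdh, which oxidises glyceraldehyde phosphate, reached 2180 ± 124 TPM (SD, n = 8), Pkm, the pyruvate kinase of most tissues, 1012 ± 115, Gpi1, which isomerises glucose phosphate, 786 ± 93.6, and Aldoa, the aldolase, 716 ± 60.0 TPM. Ldha, the main lactate-forming subunit, stood at 686 ± 43.2 TPM against 27.6 ± 4.50 for its partner subunit Ldhb. Slc16a3, a lactate exporter, was at 486 ± 95.1 TPM and Slc2a1, the widespread glucose transporter, at 50.0 ± 4.26. At the other end Pfkm, the muscle-type phosphofructokinase, was at 3.39 ± 1.16, Epas1 at 1.09 ± 0.640 and Aldoc, the brain-type aldolase, at 1.05 ± 0.207 TPM.

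The order was different in control stroma, where Eno1 and Ldha were the most abundant members. In control CD11b cells Gapdh, Pkm, Gpi1 and Aldoa again led in that order. The library kits and sorts also differ between these cells and marrow, so that no test was made between sorts. Epas1 was at 18.9 ± 6.79 TPM in control stroma (n = 8) and 0.0300 ± 0.0173 in control CD11b cells (n = 3). Bnip3, a mitophagy receptor induced by hypoxia, was at 129.6 ± 27.3 TPM in control stroma against 12.5 ± 1.90 in control CD45.1 marrow, and P4ha1, a collagen prolyl hydroxylase, at 129.8 ± 26.6 against 20.7 ± 1.69. Vegfa, the vessel growth factor, ran the other way, with 1.54 ± 0.327 TPM in control stroma and 130.9 ± 18.8 in control marrow. Hk3, a hexokinase of myeloid cells, was at 284 ± 10.8 TPM in control CD11b cells, 177 ± 30.7 in control marrow and 16.1 ± 7.23 in stroma. Summed over the 34 genes, TPM was 8326 ± 689 in control marrow, 9299 ± 639 in host cells, 10311 ± 476 in donor cells and 4439 ± 536 in control stroma.

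**Figure D1:**
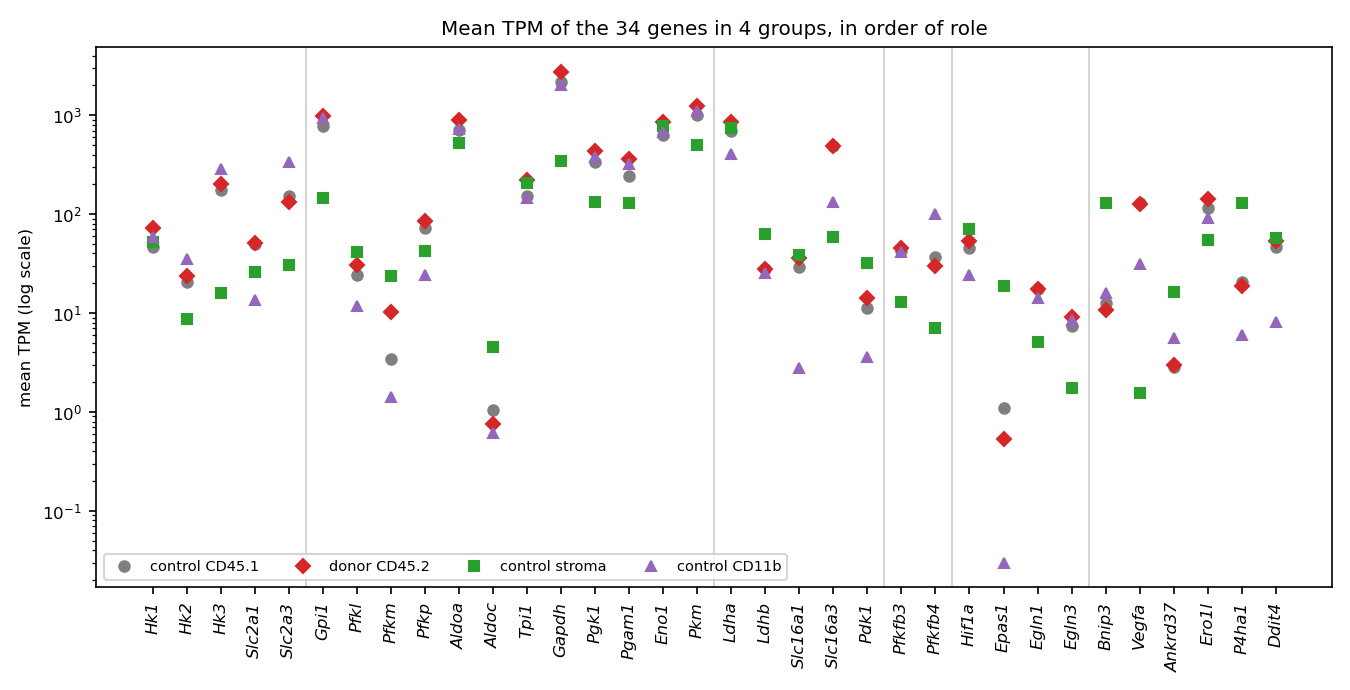
Mean TPM (log axis) of each of the 34 genes in control CD45.1 marrow, donor CD45.2 cells, control stroma and control CD11b cells, with genes in order of role and grey lines between roles. Gapdh and Pkm lie near the top in all 4 groups, and Vegfa and Epas1 differ most in fold between control stroma and control CD45.1 marrow.

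Host cells of transplanted mice, which do not carry the mutation, were compared with CD45.1 cells of controls. Of the 34 genes, 3 were higher and 0 lower, where 8.61% of 14073 genes tested passed as higher and 7.82% as lower. These were Pgam1 and Tpi1, which rearrange the 3-carbon intermediates of glycolysis, and the oxygen sensor Egln3. The median log2 fold change was 0.13 over the 34 genes and 0.01 over all genes, and 28 of the 34 values were above 0 (51.35% of all genes). No member separated host from control libraries without overlap (1.67% of genes did so as higher and 0.775% as lower).

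For Pgam1 the lowest, median and highest control libraries were at 86.7, 116.8 and 133.3 CPM, and the host libraries at 130.9, 149.3 and 175.4 CPM. A single host library, N203, lay below the highest control. The log2 fold change was 0.43 (SE 0.08, adjusted p = 0.002074), and 0.37 without control N051. Tpi1 ran from 140.7 through a median of 158.5 to 162.6 CPM in controls and from 159.8 through 195.1 to 210.4 in host cells, where again N203 alone fell within the control range. Its log2 fold change was 0.28 (SE 0.06, adjusted p = 0.007006). Egln3 was at 10.9, 14.2 and 17.6 CPM in controls and 16.3, 17.6 and 21.1 in host cells, which overlapped more, and rose by 0.39 on the log2 scale (SE 0.10, adjusted p = 0.01531). With the day of euthanasia as a replicate block, Egln3 no longer passed (adjusted p = 0.1092) and Eno1, an enolase, did (log2 fold change 0.27, adjusted p = 0.02884).

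Host library N269 bore on this comparison. Without it, 5 members were higher and 2 lower. Pfkm (log2 fold change 0.48, adjusted p = 0.01991) and Pdk1, which restrains pyruvate dehydrogenase (0.25, adjusted p = 0.04399), joined the higher genes. The glucose transporter Slc2a3 (-0.49, adjusted p = 0.02687) and Pfkfb4, a regulator of phosphofructokinase (-0.36, adjusted p = 0.0231), were lower. Over all genes 1204 were higher and 1286 lower in that fit, against 1211 and 1101 with N269 kept. With all libraries, Slc2a3 was at 348 to 513 CPM in controls and 190 to 508 CPM in host cells (adjusted p = 0.116). Hif1a was at 136.2, 148.8 and 167.3 CPM in controls and 137.9, 161.8 and 184.5 in host cells, with a log2 fold change of 0.18 (SE 0.07) that did not pass (adjusted p = 0.08297). With limma on log2 TPM Hif1a passed (0.26, adjusted p = 0.03624). Its adjusted p ran from 0.03782 to 0.1787 in edgeR fits that left out 1 library. Markers of other cells moved in the same libraries: 10 of 10 B-cell markers fell (summed level 356 to 1052 CPM in controls, 130 to 509 in host cells) and 7 of 8 macrophage markers rose (111.5 to 152.3 CPM against 161.8 to 238.4). Of 6 monocyte markers 4 rose (1546 to 2024 CPM against 2187 to 2406.5). Of 5 granulocyte progenitor markers 2 rose (4360 to 8446 CPM against 7030 to 11606), while 0 of 10 neutrophil markers passed. No B-cell marker was at 0 in any library, and of the macrophage markers only Cd5l was at 0 in at least 1 control. Their part in the gene changes was not tested.

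**Figure D2:**
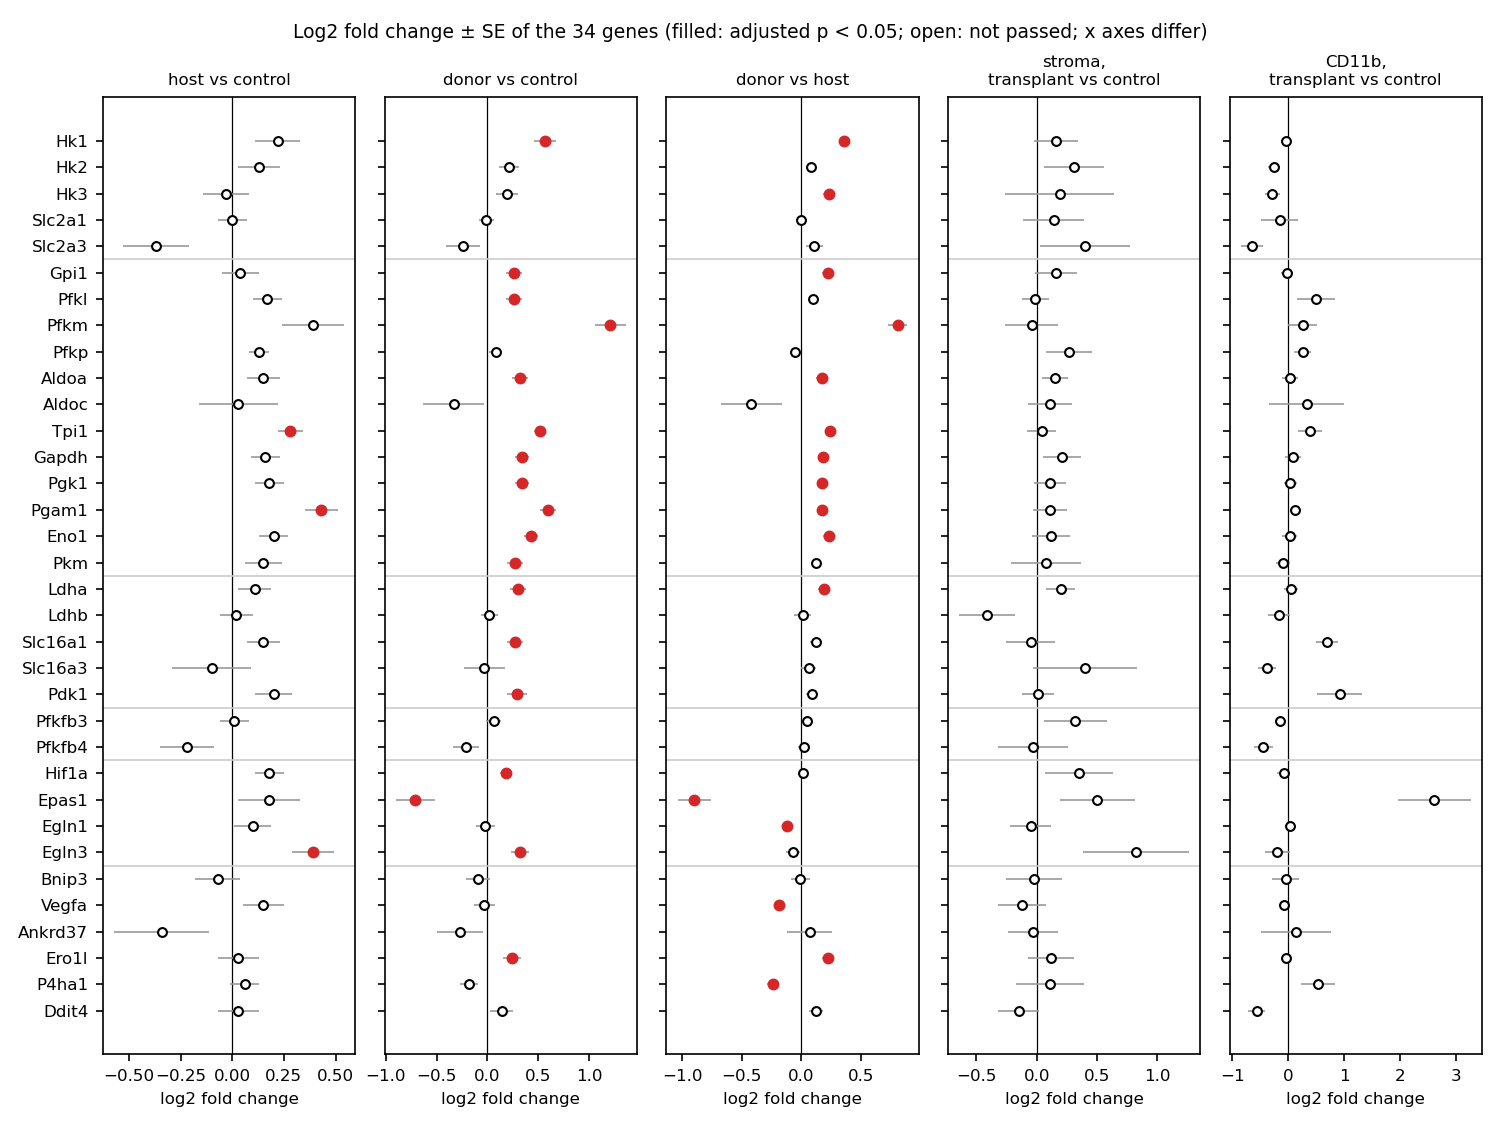
Log2 fold change (x axis, with SE) of the 34 genes in the 5 comparisons, grouped by role from hexokinases at the top to other hypoxia targets at the bottom. Filled points passed an adjusted p of 0.05; they number 3 in host cells, 18 in donor cells against controls, 16 in donor against host, and 0 in stroma and CD11b cells.

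Donor cells against control CD45.1 cells gave the most calls among the 5 comparisons. Of the 34 genes, 17 were higher and 1 lower, where 22.7% of 13906 genes tested were higher and 23% lower. The median log2 fold change was 0.20 over the 34 genes and 0 over all genes, and 23 of the 34 values were above 0 (49.88% of all genes). Of the 12 glycolytic enzymes after hexokinase 10 were higher (Gpi1, Pfkl, Pfkm, Aldoa, Tpi1, Gapdh, Pgk1, Pgam1, Eno1 and Pkm), leaving Pfkp and Aldoc. These 2 comparisons share the 8 control libraries, so their values are given side by side only.

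Among the genes of glucose entry Hk1, the hexokinase of most tissues, rose. Its control libraries were at 67.9, 122.9 and 149.6 CPM (lowest, median, highest) and its donor libraries at 162.2, 171.3 and 198.6, with no overlap. The log2 fold change was 0.57 (SE 0.11, adjusted p = 0.0002704), and 0.48 without control N051, the lowest library. Host cells lay between, at 120.4, 139.2 and 164.9 CPM (log2 fold change against controls 0.22, adjusted p = 0.1563). Slc2a1 did not pass, at 96.5, 106.2 and 116.1 CPM in controls, 88.1, 103.9 and 121.9 in host cells and 90.9, 105.8 and 127.4 in donor cells. Its donor value was -0.01 on the log2 scale (SE 0.07).

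The largest rise was that of Pfkm. Controls were at 4.06, 6.95 and 8.04 CPM, host cells at 5.60, 8.53 and 10.7, and donor cells at 10.9, 15.4 and 20.3. Donor libraries lay above all control and all host libraries. Against controls the log2 fold change was 1.21 (SE 0.15, a fold of 2.31, adjusted p = 3.988e-06), against 0.26 (SE 0.08, adjusted p = 0.009432) for the liver-type Pfkl. Pfkm stayed a minor form, with 10.3 ± 3.07 TPM in donor cells (n = 7) beside 84.9 ± 6.68 for the platelet-type Pfkp and 30.4 ± 3.22 for Pfkl.

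The enzymes below rose by less and more evenly. Tpi1 in donor cells was at 199.3, 219.1 and 245.5 CPM, above every control, and rose by 0.52 on the log2 scale (SE 0.06, adjusted p = 1.642e-06). Pgam1 was at 155.3, 172.2 and 203.5 CPM in donor cells, also above every control, with a log2 fold change of 0.60 (SE 0.08, adjusted p = 6.074e-06). Eno1 was at 679.5, 740.5 and 791.5 CPM in controls and 837, 1000.1 and 1178 in donor cells, which did not overlap (log2 fold change 0.43, SE 0.07, adjusted p = 8.47e-05). Hk1, Pfkm, Tpi1, Pgam1 and Eno1 were the 5 members with no overlap, where 7.08% of genes showed none in that direction; 0 members were separate and lower (9.68% of genes).

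Gapdh and Pgk1, the pair that first yields ATP, overlapped between groups. Gapdh was at 1390.5, 1489 and 1668 CPM in controls and 1628, 1916 and 2268 in donor cells, with a log2 fold change of 0.34 (SE 0.07, adjusted p = 0.0012). Pgk1 was at 326.2, 342.6 and 386.6 CPM in controls, 348.8, 365.1 and 479.7 in host cells and 378.9, 430.1 and 515.3 in donor cells, with a log2 fold change in donor cells of 0.34 (SE 0.07, adjusted p = 0.0006006). In host cells Gapdh was at 1506, 1576 and 2024 CPM (log2 fold change 0.16, adjusted p = 0.143). The remaining enzymes that passed were Aldoa (log2 fold change 0.32), Pkm (0.27) and Gpi1 (0.26).

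For the fate of pyruvate, 3 of 5 members rose in donor cells. Ldha was at 610.9, 698.0 and 752.4 CPM in controls, 636.8, 752.1 and 904.3 in host cells and 673.8, 869.3 and 992.1 in donor cells, where 1 library, N005, lay among the controls. Its log2 fold change was 0.30 (SE 0.08, adjusted p = 0.007168), while Ldhb was at 0.02 (SE 0.08). Slc16a1, a carrier of lactate and pyruvate, rose by 0.27 and Pdk1 by 0.29. Pdk1 did not pass with the day block (adjusted p = 0.0814) or on log2 TPM (adjusted p = 0.1667). With the day block Hk2 (adjusted p = 0.04441) and Hk3 (adjusted p = 0.01995) passed as well. Neither Pfkfb3 nor Pfkfb4, which set fructose 2,6-bisphosphate, passed.

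The hypoxia factors moved apart. Hif1a in donor cells was at 151.7, 169.5 and 177.9 CPM and overlapped with controls; it rose by 0.18 on the log2 scale (SE 0.06, adjusted p = 0.01124). Epas1 was low throughout, at 2.77, 3.91 and 5.64 CPM in controls, 2.77, 4.67 and 5.19 in host cells and 1.44, 2.30 and 3.32 in donor cells. Its log2 fold change in donor cells was -0.71 (SE 0.19, adjusted p = 0.006662) from 27 to 63 counts per donor library and 43 to 102 per control library. Egln3 was at 14.8, 17.2 and 20.6 CPM in donor cells (0.32 on the log2 scale, adjusted p = 0.009247) and Egln1 did not pass. Of 6 other hypoxia targets only Ero1l, an oxidase of the endoplasmic reticulum, rose (0.24, adjusted p = 0.03662), and it did not pass in 8 of the 15 fits that left out 1 library. Leaving out donor library N204, whose labels disagree, gave the same counts of 17 higher and 1 lower, with Pfkm at 1.28 and Epas1 at -0.64. Over all genes 3277 were then higher and 3037 lower, against 3163 and 3197 with N204 kept.

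**Figure D3:**
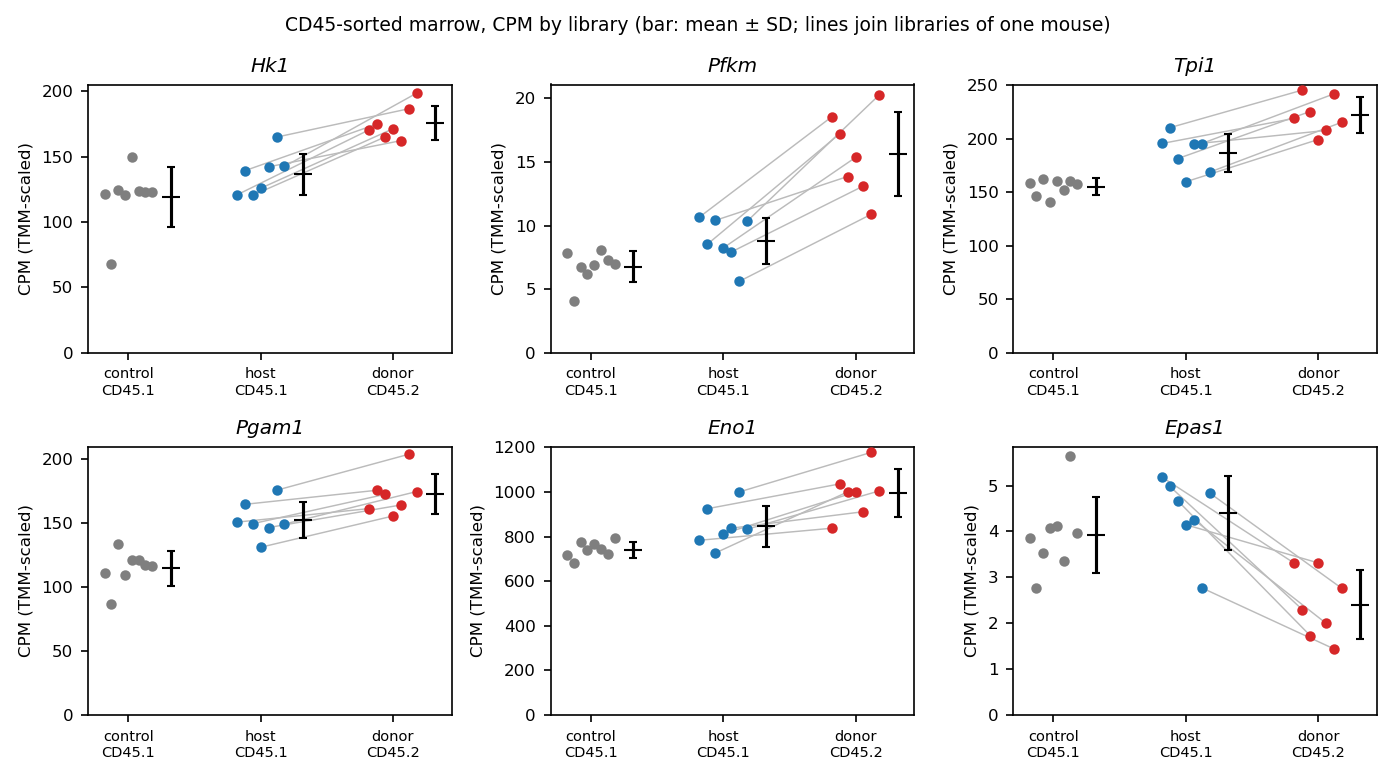
CPM of Hk1, Pfkm, Tpi1, Pgam1, Eno1 and Epas1 in each CD45-sorted marrow library (points), with mean ± SD beside each group and grey lines joining host and donor libraries of one mouse. All 7 lines rise for the first 5 genes and fall for Epas1, and the single low control in the Hk1 panel is N051 at 67.9 CPM.

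The cell make-up of the donor sort differed from that of controls. All 10 B-cell markers were lower (summed level 13.9 to 47.5 CPM against 356 to 1052). Of 10 T- and NK-cell markers 9 were lower and 1 higher, and their summed level overlapped (118.3 to 167.7 CPM against 155.0 to 241.7). Cd3e, Cd3g, Trac and Ncr1 were at 0 in at least 1 donor library. All 5 markers of granulocyte progenitors were higher (8861 to 13807 CPM against 4360 to 8446), while 0 of 10 neutrophil markers passed. Of 12 erythroid markers 5 were higher and 4 lower (87.0 to 308.3 CPM against 45.5 to 324.6), and 3 of 6 monocyte and 4 of 7 tested macrophage markers were higher. The part of these shifts in the gene changes above was not tested.

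Donor cells were next compared with host cells of the same 7 mice, with the mouse as a block, so that both fractions shared the animal. Of the 34 genes, 12 were higher and 4 lower, where 15.2% of 13662 genes tested were higher and 18.5% lower. Log2 fold changes above 0 were found for 25 of the 34 genes (49.27% of all genes). In every one of the 7 mice 10 members were higher and 3 lower in donor cells (12.1% and 13.6% of all genes). With no block, 3 members (Tpi1, Pfkm and Hk1) were higher and 1 (Epas1) lower, where 4.17% and 9.94% of genes passed.

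Pfkm again led, with a log2 fold change of 0.81 (SE 0.08, adjusted p = 2.118e-06), and was the single member whose 2 groups did not overlap, a property of 0.878% of genes in that direction and, as lower, of 4.16% of genes and 0 members. Hk1 was 0.36 higher (SE 0.04, adjusted p = 2.758e-05) and Hk3 0.23 higher, both in 7 of 7 mice. Tpi1 was 0.24 higher (SE 0.04, adjusted p = 0.0001945) and Pgam1 0.17 higher (SE 0.03, adjusted p = 0.001193), each in 7 of 7. Eno1 (0.23), Gpi1 (0.22), Gapdh (0.18) and Pgk1 (0.17) were also higher in 7 of 7 mice, and Ldha (0.19), Aldoa (0.17) and Ero1l (0.22) in 6 of 7.

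The 4 members that were lower all belong to the hypoxia side. Epas1 was lower by 0.90 on the log2 scale in donor cells (log2 fold change -0.90, SE 0.14, adjusted p = 0.0002014) and in all 7 mice. Vegfa was at 220.6, 277.9 and 353.9 CPM in host cells and 193.6, 253.6 and 307.6 in donor cells. The groups overlapped, but within mice it was lower in 7 of 7 (log2 fold change -0.19, SE 0.04, adjusted p = 0.001125). P4ha1 was lower in 7 of 7 mice (-0.24, adjusted p = 0.002556), and Egln1 was lower in 6 of 7 with a change of -0.12 that only just passed (adjusted p = 0.04024). Egln1 did not pass in 5 of the 7 fits that left out 1 mouse (N005, N014, N032, N204 or N279), with DESeq2 (adjusted p = 0.1598), with RLE scaling (0.05472), with no filter or on log2 TPM. Hif1a differed by 0.01 (SE 0.04), and Egln3, higher than controls in both fractions, by -0.07 (SE 0.06, adjusted p = 0.3315). Without mouse N204, whose donor library has the disputed label, 15 members were higher and 3 lower, and without mouse N269 15 and 4. Over all genes 2056 were higher and 2270 lower without N204, and 2272 and 2270 without N269. With all mice 2078 were higher and 2527 lower.

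Markers that separate the fractions moved here as well. The 10 B-cell markers were all lower in donor than host cells. Their summed level was 13.9 to 47.5 CPM in donor libraries, that of N204 with its disputed label included, against 130 to 509 in host libraries. In addition, 9 of 10 T- and NK-cell markers were lower (118.3 to 167.7 CPM against 160.9 to 246.2) and 1 higher, and 5 of 8 macrophage markers were lower and 1 higher. Of 6 monocyte markers 3 were lower, of 12 erythroid markers 5 were higher and 6 lower, and all 5 granulocyte progenitor markers were higher (8861 to 13807 CPM against 7030 to 11606). Their part was not tested.

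In stroma no member passed between 7 transplanted and 8 control mice with edgeR, where 1.49% of 26191 genes did in either direction, 0.466% as higher and 1.03% as lower. No member had an unadjusted p below 0.05, which 7.96% of genes had, none was separate between groups (0.233% of genes as higher, 0.546% as lower), and DESeq2 called 0 members. The median log2 fold change was 0.11 for the 34 genes and 0.04 for all genes, and 24 of the 34 values were above 0 (57.08% of all genes). The self-test on simulated counts recovered 31% of genes changed by 1 on the log2 scale here and 76% of those changed by 2, so smaller changes could be missed. The 3 members with the smallest p were Egln3, Ldhb and Ldha, and none passed.

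Egln3 was at 2.22, 3.92 and 5.22 CPM in control stroma and 0.680, 4.45 and 29.1 in transplanted stroma, the last in mouse N269 alone (the others reached 6.32). The log2 fold change was 0.82 (SE 0.44, adjusted p = 0.7413), and 0.19 without N269. Ldhb was at 36.0, 55.0 and 83.2 CPM in controls and 11.3, 45.4 and 71.0 in transplanted mice (log2 fold change -0.41, adjusted p = 0.7809), and Ldha at 735.6, 815.6 and 950.5 against 727.8, 935.8 and 1129 (0.20, adjusted p = 0.8325). Hif1a ran from 96.6 through 175.0 to 285.8 CPM and from 41.8 through 260.0 to 324.5, and Epas1 from 51.3 through 75.8 to 134.2 and from 25.2 through 124.3 to 196.0; library N032 was the lowest for both. Their log2 fold changes of 0.35 and 0.50 became 0.49 and 0.65 without N032, while Hif1a fell to 0.21 without transplanted N014 and Epas1 ran from 0.33 without transplanted N204 to 0.70 without control N208, with no call in any of these fits. Gapdh was at 229.5, 272.8 and 317.5 against 200.9, 300.6 and 453.8 CPM, and Slc2a1 at 27.7, 43.4 and 73.6 against 11.9, 58.5 and 73.2, all overlapping.

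**Figure D4:**
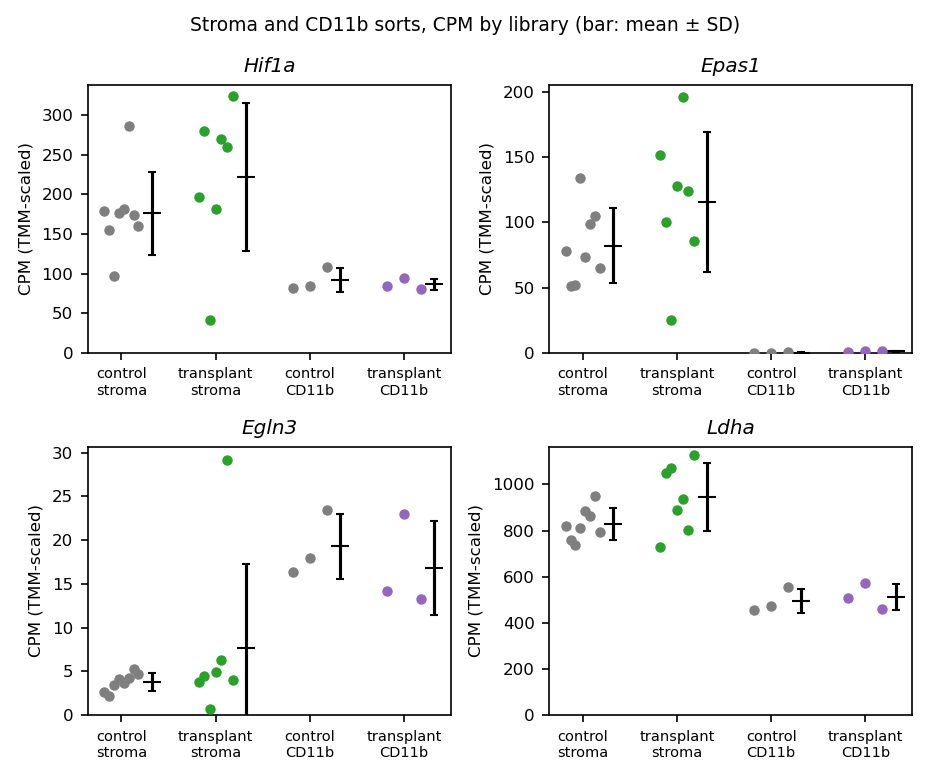
CPM of Hif1a, Epas1, Egln3 and Ldha in each stroma and CD11b library (points) with mean ± SD, where the scaling was made within each kind of sort. The stroma groups overlap for all 4 genes, and a single transplanted stroma library carries Egln3 at 29.1 CPM.

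In CD11b cells no gene passed with edgeR among 15257 tested (0%), with 2506 at an unadjusted p below 0.05. Among the members, 8 had an unadjusted p below 0.05, and 2 were higher and 5 lower with no overlap, where 12.2% and 11.9% of genes showed none. Log2 fold changes above 0 were found for 17 of the 34 genes (51.97% of all genes). The self-test recovered 57% of genes changed by 1 on the log2 scale. The 3 members with the smallest p did not pass. Epas1 was at 0.0575, 0.200 and 0.248 CPM in the 3 controls (2, 8 and 10 counts) and 0.611, 0.994 and 1.58 in the 3 transplanted mice (26, 50 and 52 counts), a log2 fold change of 2.61 (SE 0.65, adjusted p = 0.2696). Ddit4, an mTOR inhibitor induced by stress, was at 10.5, 10.7 and 12.8 CPM in controls and 7.43, 7.49 and 8.23 in transplanted mice (-0.56, adjusted p = 0.2696). Slc16a1 was at 10.6, 11.1 and 12.5 against 14.5, 16.8 and 24.4 CPM (0.70, adjusted p = 0.2696).

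Transplanted CD11b library N129 stood apart. For 10 of the 34 genes it lay over 1.5 times beyond both other transplanted libraries, against 0 to 3 genes for each of the other 5 libraries. Tpi1 was at 324.3 CPM there and at 183.0 and 183.6 in the others, Pfkl at 81.2 against 32.4 and 32.5, and Pdk1 at 31.5 against 10.4 and 11.1. The summed level of the 10 neutrophil markers was 75312 CPM in N129, 122883 and 125207 in the others and 127339 to 148237 in controls, and its part was not tested. Without N129 the log2 fold change was 0.46 for Slc16a1, -0.43 for Slc2a3 (-0.64 with it), 0.06 for Tpi1 (0.39 with it), -0.08 for Pfkl (0.50 with it) and 0.20 for Pdk1 (0.92 with it), while Epas1 was at 2.66 and Ddit4 at -0.60. None of these passed.

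DESeq2 called Epas1 (log2 fold change 2.63, adjusted p = 0.03451) and Slc2a3 (-0.64, adjusted p = 0.03673). It called 291 genes in all, 191 higher and 100 lower. The Epas1 call rests on 2 to 10 counts per control library and 26 to 52 per transplanted one. Slc2a3 was at 1100, 1224 and 1263 CPM in controls and 537.0, 783.7 and 989 in transplanted mice, with no overlap, the lowest being N129. Hif1a was at 82.2, 84.6 and 108.8 against 81.1, 84.6 and 94.4 CPM, Ldha at 456.8, 474.3 and 553.2 against 459.8, 508.6 and 572.4, and Gapdh at 1438, 1503 and 1778 against 1449, 1703 and 1871. Slc2a1 was at 29.1, 29.5 and 48.8 against 18.7, 28.4 and 49.2 CPM. These 4 overlapped between groups.

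A test of whether the effect of transplantation differed between host cells and stroma, made on the same mice, called 0 of the 34 genes. Of 22991 genes 1.82% passed, 1.21% as higher and 0.609% as lower. The self-test recovered 24% of genes changed by 1 on the log2 scale here and 62% of those changed by 2. Smaller differences between the sorts could be missed, so 0 calls do not show that the sorts respond alike.

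The 113 other genes of these pathways were counted beside the 34. In host cells 9 of 92 tested (9.78%) were higher and 5 (5.43%) lower, beside 8.61% and 7.82% of all genes. Of 27 other HIF targets tested 4 were higher and 3 lower. Hmox1, the haem oxygenase, rose by 0.62 on the log2 scale and Angptl4, a lipase inhibitor, by 0.89, while Gpd1l was lower (-0.43). Pklr, the pyruvate kinase of liver and red cells, fell by 2.14 on the log2 scale in host cells and rose by 3.33 in donor cells. It was at 0.497 to 1.77 CPM in controls, 0.0530 to 0.443 in host cells and 3.79 to 15.9 in donor cells, from 9 to 30 counts in controls, 1 to 8 in host cells and 69 to 300 in donor cells. Beside it, 1 of 12 erythroid markers fell in host cells and 5 rose and 4 fell in donor cells, and their part was not tested.

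In donor cells against controls, 25 of 92 (27.2%) were higher and 21 (22.8%) lower, near the 22.7% and 23% of all genes, and the counts of the short lists that follow are to be read against those shares. The pentose phosphate pathway, which draws glucose off for NADPH and ribose, had 4 of 7 genes higher (Rpia 0.29, Rpe 0.27, G6pdx 0.40 and Tkt 0.23) and 0 lower. Of 9 genes of glycogen and hexose phosphates 4 were higher, among them Pgm1 (0.49) and Pgm2 (0.31), the phosphoglucomutases. Of 12 tested genes for the use of pyruvate in mitochondria 5 were higher and 2 lower. Dlat (0.63) of the pyruvate dehydrogenase complex led the higher genes, which included Pdk3 (0.31), a kinase that restrains that complex. The lower ones included Pdp1 (-0.37), a phosphatase that restores its activity, so the counts give no single direction for pyruvate use. Of 10 tested partners and regulators of HIF 4 were lower, Arnt (-0.21), the beta subunit, Egln2 (-0.20) and Hif1an (-0.24), both oxygen sensors, among them, and 1 was higher. Of 28 other HIF targets 7 were higher and 8 lower, including, among the lower, Bhlhe41 (-4.36), a circadian repressor with 1 to 6 counts per donor library and 23 to 86 per control. Of 13 genes of PI3K, mTOR and Myc inputs 1 was higher and 4 lower, Tsc1 (-0.34) and Mlxip (-0.50) among the lower.

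Against host cells, 21 of 91 (23.1%) were higher and 16 (17.6%) lower, beside 15.2% and 18.5% of all genes, which also stand beside the lists that follow. The pentose phosphate list had 5 of 7 higher and the glycogen list 5 of 9, with 0 lower in either. Other HIF targets had 5 of 26 higher and 11 lower, among them Rora (-1.29), a nuclear receptor, and Cxcr4 (-0.33), the chemokine receptor that holds blood cells in marrow. In stroma Bpgm, which makes the 2,3-bisphosphoglycerate of red cells, was higher (log2 fold change 2.43, adjusted p = 0.001928). Bpgm was at 35.0 to 49.4 CPM in controls and 56.8 to 490.4 in transplanted mice. Beside it, 7 of 12 erythroid markers were higher in that stroma (summed level 3209 to 20174 CPM against 1272 to 3719), and their part was not tested.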

How the data were processed

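STAR 2.7.3a, the build GRCm39 and featureCounts (Subread 1.6.2) are listed in the submitters' processing notes, as is RSEM 1.3.3 for CD11b libraries. The gene counts deposited by the authors are raw whole numbers, and the deposited TPM values are scaled per length and library. The strand setting of counting is not given in the sources used here.

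Tests used edgeR 4.0.16 in R 4.3.3 (filterByExpr, TMM, quasi-likelihood F-test), with Benjamini-Hochberg adjustment over all genes and a threshold of 0.05. Sex was a covariate where transplanted mice were compared with controls, except in the all-male CD11b sort. Donor against host and the interaction had the mouse as a block and no sex term. Each fit held the groups compared. Log2 fold change SE was taken from the F statistic. Donor and host libraries were blocked by mouse: their deviations correlated within all 7 mice (r from 0.174 to 0.6). Transplanted and control mice killed on one day (5 pairs per sort) deviated together with r over 0.1 in 5 of 5 pairs in host and in donor cells, 4 of 5 in stroma and 0 of 5 in CD11b cells; the day block stayed an alternative. DESeq2 1.42.0, limma 3.58.1 on log2(TPM + 1), other filters and scaling, day blocks and leaving out libraries were alternatives. Scripts were tested on simulated data with 200 changed genes. Per the labels each library carries 1 animal number; p-values measure the spread between these mice.

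The genes and lists were chosen with earlier results of these data known. Values by library were given for up to 6 members per comparison with the smallest p among those that passed (3 where fewer than 3 passed), for members passing in at least 3 comparisons, and for Hif1a, Epas1, Gapdh, Ldha and Slc2a1; of other lists, up to 4 passed genes with the smallest p could be named. Aldoa has 2 identifiers, and the one with more counts was used. Some genes of the other lists are not reported here.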

Additional observations from a re-analysis of the deposited data

Results flagged for a closer look

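Among 170 combinations of a gene and 1 of the 5 marrow and stroma groups (the 2 CD11b groups, with 3 libraries each, are too small for the test), 19 library values stood apart from the rest of their group by Dixon's test, which chance alone gives in about 1 of 20. Control marrow library N051 gave 6 of them. It was low for Hk1 (67.9 CPM, others 120.7 to 149.6), Hk2 (48.2, others 77.8 to 97.1), Pfkl (44.6, others 60.6 to 65.8) and Pfkm (4.06, others 6.22 to 8.04), and high for Pgk1 (386.6, others 326.2 to 347.0) and P4ha1 (56.2, others 40.1 to 46.9).

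Host library N269 gave 5. It was high for Hk3 (567.7 CPM, others 296.0 to 400.9), Gpi1 (1457, others 927.5 to 1095), Pkm (2082, others 1390 to 1639) and Pfkfb4 (98.2, others 46.4 to 65.5), and low for Epas1 (2.77, others 4.15 to 5.19). The same mouse was high for Pgam1 in donor cells (203.5 CPM, others 155.3 to 175.4) and for Egln3 in stroma (29.1, others 0.680 to 6.32).

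The other 6 values were spread over libraries. Control marrow held Gapdh in N288 (1668 CPM, others 1390.5 to 1501), Slc16a1 in N002 (113.4, others 86.9 to 97.4), Pdk1 in N283 (30.9, others 23.9 to 26.7) and Epas1 in N283 (5.64, others 2.77 to 4.13). In stroma these were Hif1a in control N280 (285.8 CPM, others 96.6 to 182.1) and Pfkp in transplanted N032 (38.2, others 95.0 to 130.7).

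The interaction test of edgeR compared the effect of transplantation in host cells with that in stroma. It called 2 of 110 tested genes of the other pathway lists, 0.909% as higher and 0.909% as lower. Over all genes these shares were 1.21% and 0.609%. Host minus stroma was -2.30 on the log2 scale for Bpgm and 0.64 for Rptor, the mTOR partner. Over the fits that left out 1 mouse, these 2 calls were kept 24 times and lost 6 times. Rptor was at 31.7 ± 3.67 CPM in control marrow (n = 8) and 36.1 ± 2.88 in host cells (n = 7), against 12.9 ± 1.66 and 9.44 ± 2.21 in stroma.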

How the results depend on the processing

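Direction was read from log2 values rounded to 2 decimals, a rule chosen after seeing the data; 18 changes of sign that touch 0.00 are therefore not counted below. In host cells limma on log2 TPM called 7 members higher and 1263 genes in all (800 higher, 463 lower, against 1211 and 1101). In donor cells against controls it called 2 members lower. For donor against host, no replicate block gave 3 members higher, 1 lower and 1928 genes (570 higher, 1358 lower, against 2078 and 2527), and limma on TPM 2721 genes. In stroma DESeq2 called 750 genes and the day block 250; on TPM 17.5% of calls were higher, against 31.2%. In CD11b cells DESeq2 called 1 member higher, 1 lower and 291 genes, no filter 59 and limma on TPM 2. DESeq2 called 895 genes in the interaction. Leaving out 1 library gave these ranges: in host cells 3 to 5 members higher, 0 to 2 lower and 1527 (without N014) to 2687 genes; in donor cells 16 to 18, 1 to 2 (2 without donor N014) and 5730 to 6732; donor against host 12 to 15, 3 to 4 and 3633 to 4542; in stroma 0, 0 and 272 to 593 (without N032); in CD11b cells 0, 0 and 0 to 28 (without N187); in the interaction 0, 0 and 268 (without N014) to 951 (without N032). The causes were not tested.

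Slc2a1 changed sign in donor cells with no filter (0.01), on TPM (0.04), with the day block (0.05) and across fits without 1 library (-0.05 to 0.03), in stroma on TPM (-0.04) and across fits without 1 library (-0.04 to 0.27), and in CD11b cells on TPM (0.04) and across fits without 1 library (-0.60 to 0.13). On TPM so did Hif1a (-0.04) and Tsc2 (-0.03) in donor against host and Hif1a in CD11b cells (0.05). Across fits without 1 library, CD11b values ran from -0.16 to 0.06 for Hif1a and from -0.03 to 0.14 for Ldha. Depth limits Epas1, Aldoc, Ankrd37, Pklr and Bhlhe41, which had few reads in marrow. Epas1 also had few reads in CD11b cells, with 2 to 10 counts per control library.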
